A study of Caenorhabditis elegans with 2 samples.

Results

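Peaks of GFP-tagged F52B5.7 whose summits fell inside protein-coding sequence in young adult Caenorhabditis elegans numbered 210, which is 20.3% of the optimal ce11 list (95% exact Clopper-Pearson interval 17.9 to 22.9). The rest of that list was made up of 246 peaks close to small RNA genes (as defined next), 11 of them with a coding summit, and 576 peaks outside coding sequence and away from such genes. A peak was counted when its summit lay in an annotated coding exon (Ensembl gene models of WBcel235, the assembly called ce11) and more than 250 bp from every tRNA, snoRNA and snRNA gene. In all, 221 optimal summits lay in coding sequence. The binding data came from chromatin immunoprecipitation followed by sequencing (ChIP-seq) with an antibody against GFP. The strain was OP606 (unc-119(tm4063) III; wgIs606), a single transgenic line with F52B5.7 fused to GFP and FLAG at its C terminus. Mixed-sex whole worms were collected 63 h after synchronisation as starved L1 larvae, in 2 biological replicates that form 1 group. All cells of the animal were pooled, so the cells that carry a peak cannot be told apart, and no expression was measured to check them. Each region has a signal value given by the authors, whose scale is not stated. Optimal peaks were the strongest of 30000 pooled candidate regions. Regions of the same libraries are not replicates, and a second condition was lacking, so shares carry exact intervals for counting error only and no test was run.

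A coding sequence is the stretch from the start codon to the stop codon. In the nematode genome it is commonly interrupted by short introns, and genes lie close together. A summit near the start codon can therefore lie close to the annotated 5' end of its host gene. Promoters themselves were not mapped. A summit near the stop codon can lie as close to the 3' end of a neighbour that is read from the opposite strand, an arrangement called convergent or tail to tail. ChIP-seq places the summit where fragments are densest, and sonicated fragments are commonly longer than many coding exons of this genome, so a summit gives the place of binding only to within a fragment.

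Sequences around 9 summits show the places described below, from the first codons to the stop codon of the host gene. They come from the RefSeq sequence of WBcel235 (ce11), run 5' to 3' on the coding strand, and reach up to 50 bases to each side of the summit without entering untranslated exons. Capitals mark the codon that holds the summit and the start or stop codon where it falls in the window. The prmt-5 (chrIII:5230579-5230659, plus strand), snrp-200 (chrII:12736816-12736875, minus strand) and xrn-2 (chrII:14155787-14155877, plus strand) windows open with the start codon and stand for summits at the 5' end. The rsp-8 (chrIII:11830672-11830728, plus strand) and nuaf-1 (chrV:13567008-13567107, minus strand) windows close with the stop codon. The dos-3 window (chrIII:835914-836014, minus strand) and the mec-17 window (chrIV:7984036-7984136, minus strand) lie in last coding exons whose genes end against a convergent neighbour. The mnk-1 (chrII:10547429-10547529, minus strand) and pks-1 (chrX:5429489-5429589, plus strand) windows lie over 500 bp from either end of the gene.
prmt-5: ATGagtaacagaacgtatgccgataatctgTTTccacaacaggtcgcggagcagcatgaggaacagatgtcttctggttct
snrp-200: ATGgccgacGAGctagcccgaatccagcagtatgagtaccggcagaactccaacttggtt
xrn-2: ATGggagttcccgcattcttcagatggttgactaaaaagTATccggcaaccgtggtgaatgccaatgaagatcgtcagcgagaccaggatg
rsp-8: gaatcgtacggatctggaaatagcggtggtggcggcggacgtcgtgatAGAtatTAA
nuaf-1: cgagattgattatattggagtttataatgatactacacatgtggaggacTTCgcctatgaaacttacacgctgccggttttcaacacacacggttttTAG
dos-3: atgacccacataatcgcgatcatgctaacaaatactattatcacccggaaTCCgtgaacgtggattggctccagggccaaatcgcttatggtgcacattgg
mec-17: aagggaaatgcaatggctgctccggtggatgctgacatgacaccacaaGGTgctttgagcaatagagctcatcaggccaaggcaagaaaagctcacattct
mnk-1: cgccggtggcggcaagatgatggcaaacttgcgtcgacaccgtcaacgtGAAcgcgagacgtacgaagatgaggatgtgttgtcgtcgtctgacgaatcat
pks-1: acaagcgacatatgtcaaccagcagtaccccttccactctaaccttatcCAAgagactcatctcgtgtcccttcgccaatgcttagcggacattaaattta

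The 210 summits lay in 203 host genes, which is 1.02% of the 19973 protein-coding genes. Coding sequence held 12965 pooled candidates under the same rule, of which the 210 are 1.62%. The 12755 others serve as the comparison below, together with the strongest 210 of them, because signal itself may go with place. At least 1 such candidate lay in 7257 genes, and the 203 hosts are 2.8% of these. No summit lay in the coding sequence of more than 1 gene. The coding part filled a median of 70.1% of a peak (quartiles 55.1 and 86.1%). At least 50% of the region was coding in 177 of the 210 peaks and all of it in 34, so most of these regions also reach into introns, untranslated exons or the space between genes.

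The optimal list was cut by signal, so the signal of its peaks is higher than that of the other candidates by construction. Signal ran from 114.579 to 2954 with a median of 135 (quartiles 121 and 156). The median was 45.4 in the other coding candidates and 145 in the 576 optimal peaks that lie outside coding sequence and away from small RNA genes. The coding-sequence peaks thus sat toward the lower end of the optimal list, and 71 of them were in its stronger 50%. The weakest 3 lay in gei-4 (114.579), F37B4.10 (114.688) and the collagen gene col-122 (114.760). Just outside the list were candidates in pigt-1 (114.575), F13D12.5 (114.546) and pck-1 (114.331), so no gap in signal separates the peaks from the next candidates. The strongest 210 other candidates ran from 99.2 to 114.575.

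The first and last coding exons held most of the summits. The first coding exon held 58 (27.6%, 21.7 to 34.2), the last held 68 (32.4%, 26.1 to 39.2), and 8 lay in genes with a single coding exon (3.81%, 1.66 to 7.37). Internal coding exons held 76 (36.2%, 29.7 to 43.1). Among all other candidates, the shares were 10.6% for the first, 15.96% for the last and 72.3% for internal exons, close to the 10.9, 15.2 and 72.9% of all coding bases (longest transcript of each gene). The strongest 210 other candidates fell between, with 25.7% (19.9 to 32.2) in the first, 24.3% (18.6 to 30.7) in the last and 46.2% (39.3 to 53.2) in internal exons. Their intervals overlapped those of the coding-sequence peaks in each of these places. The excess at the gene ends over the coding bases therefore also appears in strong candidates that the optimal list left out.

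Divided into 10 equal bins from start codon to stop codon, the coding sequence held 44 summits in its first bin and 38 in its last. The 4th and 5th bins held 7 and 8. The other candidates were spread nearly evenly, with 8.95 to 11.4% in each bin. Of the peaks, 46 lay within 100 coding bases of the start codon (21.9%, 16.5 to 28.1) and 39 within 100 coding bases of the stop codon (18.6%, 13.6 to 24.5). For the strongest 210 other candidates these shares were 20% (14.8 to 26.1) and 9.52% (5.91 to 14.3), and for all others 7.15 and 6.01%.

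**Figure D1:**
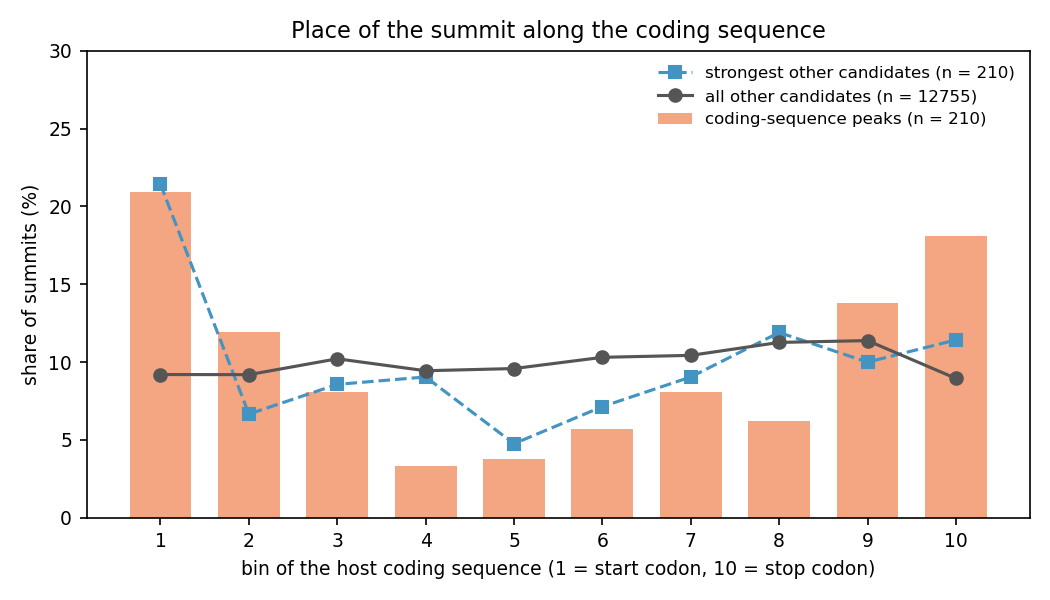
Share of summits (%) in each of 10 equal bins of the host coding sequence, for the 210 coding-sequence peaks (bars), the strongest 210 other coding candidates (squares) and all 12755 others (circles). The bars are highest in the first bin (44 peaks) and the last bin (38 peaks) and lowest in the 4th (7 peaks), while the circles stay between 8.95 and 11.4%.

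By distance along the gene, 4 places were told apart after the data had been seen. The transcription start site (TSS) is taken throughout as the annotated 5' end of a transcript, which need not be where transcription begins. A summit within 500 bp of a TSS of its host was called start. One within 500 bp of the host's 3' end was called end, one near both was called both, and the rest interior. These places held 71, 68, 23 and 48 peaks. Interior summits were 22.9% of the peaks (17.4 to 29.1), 36.2% of the strongest other candidates (29.7 to 43.1), 59.8% of all others and 58.3% of coding bases. Summits within 500 bp of a host TSS were 44.8% of the peaks (37.9 to 51.8), against 41.4% (34.7 to 48.4), 25.4% and 25.1%. Summits within 500 bp of the host's 3' end were 43.3% (36.5 to 50.3), against 29.5% (23.4 to 36.2), 18.6% and 19.8%. The share within 500 bp of a host TSS was thus close to that of the strongest other candidates. The share within 500 bp of the host's 3' end was larger in the peaks, with intervals that nearly met (36.5 and 36.2). This contrast depended on the measure. Intervals overlapped for the last coding exon, the last bin and the 100 coding bases next to the stop codon. They did not for 3' ends with a convergent neighbour (28.3 to 41.6 and 15.7 to 27.1). Median coding length was lower for the peaks (1111.5 against 1479 bases), and its part in the contrast was not tested.

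**Figure D2:**
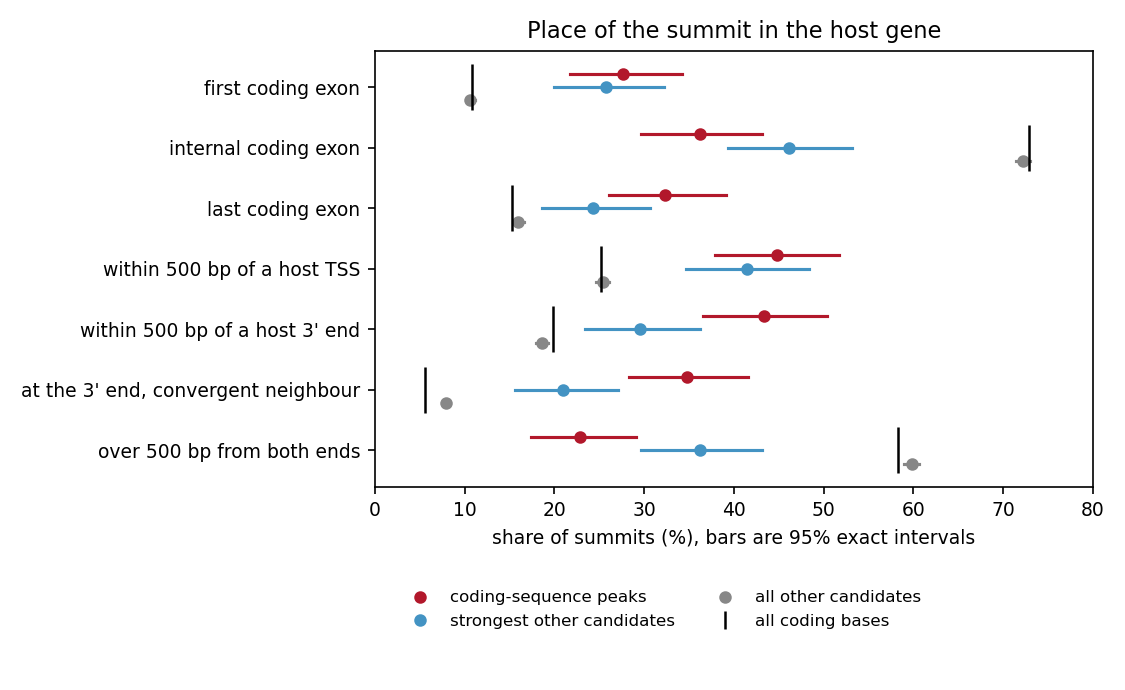
Share of summits (%) in 7 overlapping places of the host gene, with 95% exact intervals as horizontal bars, for the coding-sequence peaks, the strongest 210 other coding candidates and all 12755 others, and the share of all coding bases as a black tick. The peaks lie to the right of all other candidates and of the ticks at both gene ends, and to their left in internal exons (36.2 against 72.3%) and in the interior (22.9 against 59.8%).

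At the 5' end, the 7 strongest summits of the start place lay at coding bases 10 to 249. The summit in prmt-5 (chrIII:5230454-5230753), which encodes an arginine methyltransferase, lay at coding base 31, counted from 1 at the start codon, and 39 bp from the TSS. Its pooled signal was 321, with 152 in replicate 1 and 179 in replicate 2, each on the scale of its own list, and its ranks were 58 and 25. The summit in snrp-200 (chrII:12736728-12736955), which encodes a helicase of the spliceosome, lay in the 4th codon, at coding base 10, with a pooled signal of 257 and ranks 74 and 108. In F42A6.6, with the summit at coding base 53, the signal was 259 and the ranks were 59 and 127. These 3 stood among the 127 strongest regions of both replicates.

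Other strong peaks of the start place lay in Y43B11AR.3 (251), fubl-1 (250), Y56A3A.22 (225) and icl-1 (212). The product of fubl-1 has the KH domains of an RNA-binding protein, and icl-1 encodes the enzyme of the glyoxylate cycle. The summit in Y43B11AR.3 was 353 bp from a snoRNA gene, among the closest that the 250 bp limit left in. Over the 71 summits of this place, the median distance to the nearest host TSS was 89 bp (quartiles 50 and 166.5), and most lay downstream. A neighbour read from the opposite strand began within 1000 bp of the host's 5' end in 13 of 94 summits at the start or at both ends (13.8%, 7.57 to 22.5), against 5.75% (1.89 to 12.9) among the strongest other candidates there and 19.3% among all others. The peaks lay between these sets, and their interval overlapped that of each. The TSS of an alternative transcript counts as well. A summit in the p53 family gene cep-1 was placed in this way, 149 bp from a TSS that lies late in the gene, and the summit itself lay 67.6% along the coding sequence.

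At the 3' end most summits lay where 2 genes end against each other. Of 91 summits within 500 bp of the host's 3' end, 73 (80.2%, 70.6 to 87.8) had as next gene a convergent neighbour whose 3' end lay within 500 bp. This measure was chosen after the data had been seen. The same held for 44 of 62 among the strongest other candidates (71.0%, 58.1 to 81.8) and 1007 of 2370 among all others (42.5%, 40.5 to 44.5). Of all protein-coding genes, 5754 (28.8%) have such a neighbour. Over all 210 peaks, 34.8% (28.3 to 41.6) lay at such a place, compared with 20.95% (15.7 to 27.1) of the strongest other candidates, 7.89% of all others and 5.59% of coding bases. The share was 41.0% (31.5 to 51.0) in the stronger 105 peaks by signal and 28.6% (20.2 to 38.2) in the weaker 105. The 73 summits belonged to 71 gene pairs, and the 2 gene models overlapped in 52 of the 73 (71.2%, 59.4 to 81.2), compared with 54.5% (38.8 to 69.6) of the strongest other candidates at such places and 64.8% (61.8 to 67.8) of all others. These intervals overlap. In 59 summits that lay at the end alone, the gap between the ends had a median of -13 bp, a negative gap being an overlap, and ran from -126 to 265 bp.

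The strongest peak of this kind lay in the last exon of dos-3 (chrIII:835784-836243), a gene named for the DOS motif of Notch co-ligands. Its convergent neighbour is zip-2, a bZIP transcription factor of the response to pathogens, and the gene models overlap (a gap of -63 bp). Pooled signal was 511, with 318 in replicate 1 (rank 7) and 233.8 in replicate 2 (rank 12). The next was in suro-1 (chrI:7872119-7872623), whose neighbour pck-2 encodes a phosphoenolpyruvate carboxykinase, with a pooled signal of 441 and ranks 23 and 11. The summits were nearer to the TSS of zip-2 (1659 bp) and of pck-2 (2309 bp) than to that of the host, so a rule of the nearest TSS gives these peaks to the neighbours. A second suro-1 peak (signal 143, rank 1162 in replicate 1) overlapped the first, and both summits fell in the same region of replicate 2. This was the single overlapping pair among the 210.

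Further pairs were led by rsp-8, an SR splicing factor, with ntl-3 of the CCR4-NOT deadenylase (signal 255.9), and by stdh-1 with C06B3.6 (252). R12E2.13 faced rpn-8, a proteasome subunit (245), and mec-17, the tubulin acetyltransferase of touch neurons, faced arf-5, a small GTPase (236.4). The lsm-7 gene, a subunit of the ring on U6 snRNA, faced the autophagy gene lgg-2 (223), and lmd-2 faced the ribosomal protein gene rpl-4 (215). Further neighbours were the mitochondrial enzyme genes cts-1, citrate synthase, beside best-18 (205), and aco-2, aconitase, beside C06G4.4 (195). Y82E9BR.3 lay beside lelo-2 (229). Neighbours are named with their hosts and were not chosen by a rule of their own. Host and neighbour cannot be told apart as the gene a peak belongs to, since the summit lies near the 3' ends of both.

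Among the strongest 25 coding-sequence peaks, 11 were of the end place, 10 of the start place or both, and 4 were interior. A convergent neighbour faced the 3' end in 13 peaks of the end place or both. The largest of all was interior. It lay in snpc-4 (chrI:8962810-8963493), whose product belongs to SNAPc, a complex needed for transcription of snRNA genes, in the third of 13 coding exons and 914 bp from its TSS. Its pooled signal was 2954, with 1202 in replicate 1 and 1760 in replicate 2, and it ranked 1 in both, while no other of the 210 passed 511. It was also the widest of the 210 (684 bp). The nearest tRNA, snoRNA or snRNA gene was 9995 bp away.

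The other interior peaks were weaker. In mnk-1 (chrII:10547392-10547620), a kinase that acts below MAP kinases, signal was 217 and the ranks were 82 and 333. In abts-1, a bicarbonate transporter gene, signal was 184 and the ranks were 221 and 658. The summit farthest from any TSS was in pks-1 (chrX:5429344-5429733), a polyketide synthase gene with 30 coding exons. It lay in exon 22, 15189 bp from the nearest TSS, that of C41A3.2, with a signal of 172 and ranks 171 and 1990. The next were in pad-1 (10839 bp, signal 117), a second snrp-200 peak in exon 8 of 12 (6831 bp, 123.4), abts-1 (5176 bp) and Y75B8A.8 (4833 bp, 128). Of the 210, 135 lay within 1000 bp of some protein-coding TSS (64.3%, 57.4 to 70.8), against 60.5% (53.5 to 67.1) of the strongest other candidates, 45.6% of all others and 60.2% (56.1 to 64.3) of the other optimal peaks. In 28 of the 210 (13.3%, 9.05 to 18.7) the nearest TSS belonged to another gene than the host, compared with 21.9% (16.5 to 28.1) of the strongest other candidates and 22.6% of all others.

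**Figure D3:**
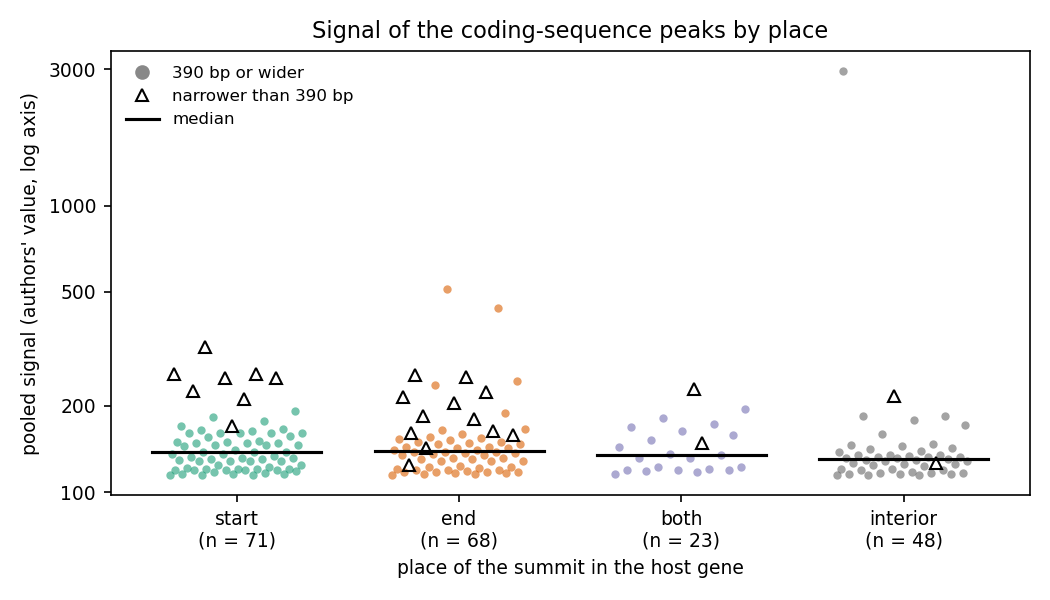
Pooled signal (the authors' value, log axis) of each of the 210 coding-sequence peaks by place of the summit in the host gene, with the median of each place as a line and peaks narrower than 390 bp as triangles. The medians lie close together (138 start, 139 end, 135 both, 130 interior), the snpc-4 peak stands far above the rest at 2954, and most triangles lie above the medians of the start and end places.

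Signal at the different places overlapped widely, with quartiles of 121 and 161 at the start, 123.1 and 159 at the end, 120 and 161 at both, and 120 and 140 in the interior. The stronger and the weaker 105 peaks differed more in place. Interior summits were 14 of the stronger 105 (13.3%, 7.49 to 21.4) and 34 of the weaker 105 (32.4%, 23.6 to 42.2). Summits in internal exons were 25 and 51. Those within 100 coding bases of the stop codon were 27 and 12, and those in the last of the 10 bins 28 and 10. Summits within 100 coding bases of the start codon were 30 and 16, and those within 500 bp of a host TSS were 50 and 44. Intervals overlapped for the start codon (20.2 to 38.2 and 8.97 to 23.6%) and the stop codon (17.7 to 35.2 and 6.05 to 19.1%). The stronger peaks thus had fewer interior summits, while their share within 500 bp of a host TSS was close to that of the weaker peaks.

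Peaks narrower than the standard width had a higher median signal than those that had it. Candidate regions have a standard width in each list, 390 bp in the pooled list, and 182 of the peaks had it. A further 24 were narrower (11.4%, 7.46 to 16.5) and 4 were wider. Narrower regions made up 1.43% (0.296 to 4.12) of the strongest other candidates, 0.0706% of all others and 18.75% (15.6 to 22.2) of the other optimal peaks. The 24 had a median signal of 213, against 132 for those of 390 bp, and 22 of them were among the stronger 105. By place, 12 were at the end, 10 at the start or both and 2 in the interior. The narrowest 5 all lay in the last coding exon beside a convergent neighbour, in pgal-1 (99 bp, signal 142), nuaf-1 (101 bp, 185), C36E8.4 (109 bp, 161), chmp-7 (117 bp, 164) and lmd-2 (120 bp, 215). The 4 wider regions were those of snpc-4, dos-3 and both of suro-1.

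The replicates ranked the peaks differently. A candidate region of replicate 1 held the summit of 207 peaks, one of replicate 2 held 208, and both did for 205 (97.6%, 94.5 to 99.2). The share with a candidate in both was 38.4% among all other coding candidates and 97.1% among the strongest 210. Missing in replicate 1 were the peaks in rsy-1, mak-1 and Y69H2.10, and missing in replicate 2 were 1 of the 3 peaks in W06H8.6 and the one in T12D8.5. These 5 genes are named because they are few. For each replicate, its strongest regions were taken, as many as the optimal list has peaks. Of the 210 peaks, 72 were among these in both replicates (34.3%, 27.9 to 41.1), 72 in replicate 1 alone, 49 in replicate 2 alone and 17 in neither. Among the other optimal peaks, 45.3% (41.2 to 49.5) were in both and 7.81% in neither, against 8.10% of the coding-sequence peaks in neither. The other optimal peaks had a higher median signal (145 against 135), and the part of signal in this difference was not tested. A coding-sequence peak was as often strong in replicate 1 alone as in both.

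The median rank was 672 in replicate 1 (quartiles 344.5 and 1148) and 887 in replicate 2 (416.5 and 1699). Replicate 1 ranked 118 peaks higher and replicate 2 ranked 85 higher, with equal ranks for snpc-4 (1) and lsm-7 (142). Across the 205 peaks with both ranks, Spearman's rho was -0.0416, as a description of peaks that were all chosen by pooled signal and share 2 libraries. Ranks differed over 10 times in 22 peaks, 16 of them stronger in replicate 1. By ratio the widest gap was that of the second suro-1 peak (ranks 1162 and 11), whose region in replicate 2 also held the first. By difference of ranks it was that of thoc-7, with rank 296 in replicate 1 and 22722 in replicate 2. Both were chosen after their values were seen. Of the stronger 105 peaks, 63 were among the strongest of both replicates (60%, 49.98 to 69.4), and of the weaker 105, 9 were (8.57%, 3.99 to 15.6). The split is by the pooled signal of the same libraries, so a difference in this direction is built in.

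Interior peaks had the lowest share that was strong in each replicate, 7 of 48 (14.6%). The counts were 29 of 71 at the start (40.8%), 29 of 68 at the end (42.6%) and 7 of 23 at both (30.4%). Among the 48 interior peaks, 22 were strong in replicate 1 alone and 14 in replicate 2 alone. Interior peaks were also more frequent among the weaker peaks, as above, and the part of signal in this difference was not tested.

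**Figure D4:**
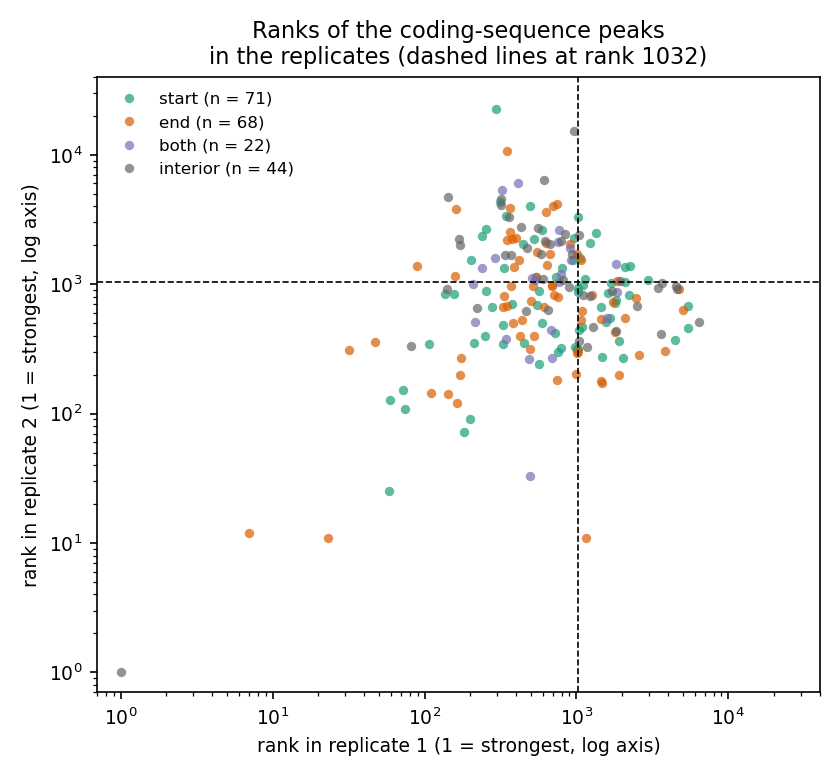
Rank of the 205 coding-sequence peaks with a candidate in both replicates, replicate 1 against replicate 2 on log axes, coloured by place of the summit. Dashed lines bound the strongest regions, as many as the optimal list has peaks, the lower left field holds 72 peaks, and snpc-4 lies at rank 1 in both.

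More than 1 peak lay in 6 hosts. W06H8.6 held 3, in coding exons 2, 4 and 6 of 6, with signals of 164, 129 and 124 and ranks of 201, 319 and 194 in replicate 1. In replicate 2 the first 2 ranked 1529 and 4084, and the third had no candidate. All 3 were thus among the strongest regions, as many as the optimal list has peaks, in replicate 1 alone. The rank of 1529 lay within the quartiles of the coding-sequence peaks in replicate 2 (416.5 and 1699). Y65B4BL.7 had peaks at its start (131) and end (115.6), cep-1 in exons 10 and 12 of 13 (134 and 159), and the dehydrogenase gene dhs-25 in exons 2 and 5 of 5 (133 and 128). The 2 peaks of dhs-25 went opposite ways, with ranks of 3585 and 412 for the former and 347 and 10643 for the latter. The peaks of suro-1 and snrp-200 are given above.

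Hosts were also read against 20 gene lists by symbol, where 1.02% of all protein-coding genes were hosts. The list of RNA polymerase, SNAPc, Mediator and Integrator subunits had 6 hosts among 84 genes (7.14%, 2.67 to 14.9). They were snpc-4 (2954), rpc-2 of RNA polymerase III (170), the Mediator genes mdt-17 (165) and mdt-15 (118), and the Integrator genes ints-7 (118.98) and ints-11 (118). Splicing factors had 4 of 73 (5.48%, 1.51 to 13.4), namely snrp-200, rsp-8, lsm-7 and rsp-3, the last with a signal of 128. By their strongest summit, 5 of these 10 genes belonged to the start place, 3 to the end and 2 to the interior.

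Collagens, which build the cuticle, had 6 of 178 (3.37%, 1.25 to 7.19), led by col-105 (164), col-91 (140) and col-51 (132). Vitellogenins, the yolk proteins, had 2 of 6 (33.3%, 4.33 to 77.7), vit-6 (161) and vit-2 (116.04), and glycolysis and gluconeogenesis had 2 of 24 (8.33%, 1.03 to 26.997), pck-1 (134) and fbp-1 (129). Cytosolic ribosomal proteins had 2 of 80 (2.5%, 0.304 to 8.74), rpl-27 (172) and rla-1 (149), chaperones 1 of 60, hsp-90 (143), the respiratory chain 1 of 51, nuo-5 (145), and histones 1 of 80, his-60 (120). Intestine and immunity genes had 8 of 610 (1.31%, 0.568 to 2.57), led by clec-264, vha-2 and gst-9 at 146 to 148. Small RNA pathway genes had 2 of 62, xrn-2 (170) and eri-1 (120).

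The other lists described had shares of 0 to 0.652%. Ubiquitin and proteasome genes had 3 of 460 (0.652%), fbxb-14, pbs-5 and uba-1. Transcription factors had 2 of 482 (0.415%), hlh-11 and crh-1, neuronal genes 1 of 300 (0.333%), mec-17, and chemoreceptors 2 of 1309 (0.153%), srw-85 and srt-47. No host was among 101 chromatin regulators (0%, 0 to 3.59), 56 muscle genes (0 to 6.38), 40 translation factors (0 to 8.81) or 31 aminoacyl-tRNA synthetases (0 to 11.2). Each of these intervals holds the 1.02% of all protein-coding genes. Among genes with a coding-sequence candidate, 2.8% were hosts. That share was 2.65% for ubiquitin and proteasome genes, 1.13% for transcription factors, 0.962% for neuronal genes and 1.49% for chemoreceptors. Lists differ in gene length and in how many members hold any candidate, so a share does not rank the lists as targets.

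The X chromosome held 7 peaks in 6 hosts (3.33%, 1.35 to 6.75). It held 13.1% (12.5 to 13.7) of all other coding candidates, 11.4% (7.46 to 16.5) of the strongest of them, 13.5% (10.9 to 16.6) of the other optimal peaks and 14.3% of coding bases. This comparison was chosen after the data had been seen. The X peaks lay in pks-1, F17H10.1, dhs-25 (2 peaks), unk-1, vha-20 and vit-2, with signals of 116.04 to 172. The share depends on the replicate: among the coding-sequence summits of the strongest regions of a single replicate it was 7.75% in replicate 1 and 1.73% in replicate 2. Chromosome I held 47 peaks, II 38, III 45, IV 32 and V 41.

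**Figure D5:**
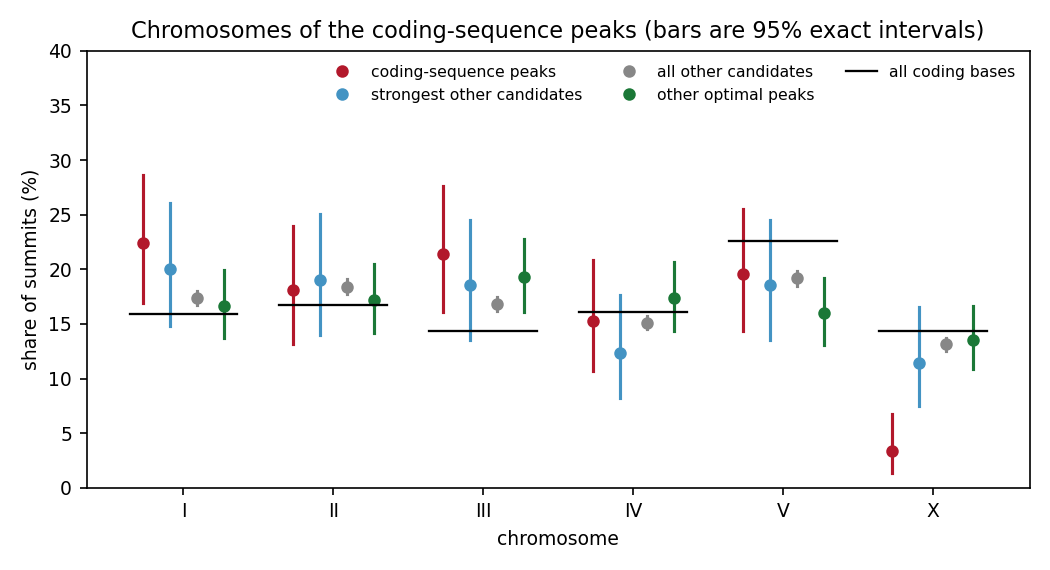
Share of summits (%) on each chromosome with 95% exact intervals, for the coding-sequence peaks, the strongest 210 and all 12755 other coding candidates and the 576 other optimal peaks, and the share of all coding bases as a black line. On X the coding-sequence peaks (3.33%) lie below every other set (11.4 to 14.3%), and on the autosomes their intervals overlap those of the strongest other candidates.

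Median coding length was lower for the genes that held the peaks than for those that held the other candidates, where a gene counts once for each region in it and long genes thus count more often. The coding sequence had a median of 1111.5 bases in 5 coding exons, against 1686 bases in 7 exons for all other candidates and 1479 bases in 6 for the strongest of them. The exon that held the summit had a median of 269 bases, against 334 and 305.5. In a short gene every base is near an end, so length and place go together, and their parts were not told apart. GC content of the 101 bases around the summit had a median of 47.5%, compared with 46.5% in all other candidates, 51.5% in the strongest of them and 49.5% in the other optimal peaks. Regions with no 31-base word that occurs elsewhere in the genome were 93.8% (89.6 to 96.7) of the peaks and 89.4% of all other candidates. The largest repeated part was 42.2% of the region, in K07C5.13, named for that value, so no peak was mostly repeat.

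Of 5 short sequence words searched, all were in a smaller share of coding-sequence peaks than of the other optimal peaks, and for 2 of them, ACGCAG and AGAGCG, the intervals do not overlap. The words were searched as exact letters on both strands in the 101 bases around each summit. They were chosen with earlier results known, so these shares describe the peaks and test nothing. ACGCAG was in 12 of the 210 peaks (5.71%, 2.99 to 9.77), 2.57% of all other coding candidates, 2.38% of the strongest of them and 12.7% (10.1 to 15.7) of the other optimal peaks. AGAGCG was in 3 peaks (1.43%, 0.296 to 4.12), against 2.38, 2.86 and 10.1% (7.74 to 12.8). The interval of the peaks for AGAGCG holds the shares of both sets of coding candidates. For ACGCAG it lies above that of all other coding candidates (2.30 to 2.86) and overlaps that of the strongest of them (0.778 to 5.47). GTTCGA was in 5.24% of the peaks and 5.28, 6.67 and 5.56% of those sets. GAACCC was in 1.90%, against 2.49, 2.86 and 2.43%, and ACCACT in 3.33%, against 4.64, 5.71 and 6.25%. A word is a match of letters and not a binding site.

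The members nearest to the small RNA limit were tmem-107, 283 bp from a snoRNA gene (signal 181), Y43B11AR.3 at 353 bp and rla-1 at 428 bp. Inside the limit were 11 coding summits, from 33 to 144 bp away, the farthest in hsp-12.3 (144 bp, signal 123.005). Another 5 peaks lay within 20 kb of the middle of F52B5.7, the tagged gene, in abts-1, C34B7.1, cep-1 (2 peaks) and F52B5.3. The transgene also carries F52B5.7, and the part of added copies in the signal of these 5 was not tested. Without peaks within 20 kb, the share at a convergent 3' end was 35.1%. In the authors' ce10 optimal list, 190 of the 210 had a match and 20 did not, and all 20 were weaker than the weakest peak of that list (116.6).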

How the data were processed

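The signal value and the −log10 q value of each region were deposited by the authors in candidate and optimal peak lists on ce10 and ce11. Per the submitters' file manifests, candidates were called per replicate and on pooled replicates against a control, and the optimal list was kept after a comparison by irreproducible discovery rate. The control was not analysed here. No source used here gives the aligner, the caller, their versions or the threshold, and the lists do not show how deeply each library was sequenced. Regions were ranked by signal within a list. At the highest −log10 q value stood 60 of the 210 peaks, so it ranked nothing.

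Summits were placed on Ensembl release 115 gene models of WBcel235 in Python 3.11.15 (numpy 2.4.6, pandas 2.3.3, scipy 1.17.1), and the placement was tested on simulated summits. A summit was found in a replicate when a candidate held it. Optimal peaks were matched to pooled candidates by position, offset and signal, and to ce10 by width, offset and signal within 0.1%.

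The peaks, gene lists and words were chosen with earlier results of these data known. The result of 1 gene list is not reported here. Hosts are named by signal (strongest 20, weakest 3, up to 3 a gene list), by number of peaks, width, distance from a TSS and distance from small RNA genes. The 4 places, the convergent measure, the X share, the repeated words and the alternative around F52B5.7 were chosen after the data had been seen.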

Additional observations from a re-analysis of the deposited data

How the results depend on the processing

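Of 82 values recomputed under alternatives, 59 stayed within the 95% interval of the reported value (for numbers of hosts, within 1.5 times it) and 23 moved. With the strongest regions of a single replicate, as many as the optimal list has peaks, in its place, coding-sequence peaks numbered 173 of replicate 2 and 271 of replicate 1. The lowest and highest values over these 2 choices were 16.8 and 26.3% for the share of the list, 21.4 and 30.6% for the first coding exon, 360 and 424 bp for median width, which are the standard widths of the lists, and 73.2 and 74.2 for median signal on the replicates' own scales. They were 25.8 and 38.7% for the strongest regions of both replicates and 1.73 and 7.75% for the X chromosome. For the former, a place among the strongest regions of the chosen replicate is given. That share thus counts only overlap with the other replicate and is not the same measure as in the optimal list. In the stronger 50% of the optimal list, coding-sequence peaks were 13.8% of the list with 71 hosts, 38.03% lay in the first coding exon, 76.1% within 1000 bp of a TSS, 76.1% in the strongest regions of both replicates and 43.7% at a convergent 3' end, and median signal was 167. The pooled signal comes from the same replicates, so a higher share in both for the stronger 50% is built in. A TSS window of 500 bp held 45.7%. The share in both replicates was 14.3% with 50% as many regions per replicate, 69.0% with 2 times as many and 26.7% with 50% reciprocal overlap. Within 250 bp of the 3' end, the convergent share was 22.4%. Among other coding candidates, the strongest 210 had 25.7% in the first coding exon and 60.5% near a TSS. The cause was not tested, apart from smaller windows and shorter lists holding fewer regions by construction. No paired analysis was possible because 1 group alone was studied. Depth behind each region is unknown, so weak differences between replicates were not weighed.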
